A study of Mus musculus with 12 samples.

Results

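Neutrophils are white blood cells that enter inflamed tissue and tumours, and 10 genes typical of them were examined in 4T1 mouse mammary tumours treated with endothelial extracellular vesicles (EVs). The genes were taken by name: *S100a8*, *S100a9*, *Retnlg*, *Cxcr2*, *Ly6g*, *Trem1*, *Ngp*, *Camp*, *Ltf* and *Mmp8*. They are 10 of the 35944 genes to which transcripts could be matched, and all 10 were among the 15459 genes that had at least 10 reads in at least 3 libraries.

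The tumours came from 4T1 cells, a BALB/c mammary carcinoma line, of which 100000 were placed under the skin of the right flank in BALB/c females aged 6-8 weeks. From day 5 the mice received 3 µg of EVs beside the tumour every 2 days, and tumour RNA was collected on day 21. The EVs of every group came from MS-1, a mouse endothelial cell line, and had been electroporated with a synthetic microRNA mimic: cel-miR-67, a worm microRNA that mice lack, in the ctrl group, and in the others the mimic of miR-142-5p, that of miR-183-5p or that of miR-222-3p. Each of the 4 groups held 3 tumours, and no group without EVs was analysed here. Whether the 3 tumours of a group shared a cage or an injection batch is not given, so the p-values describe the spread between these tumours.

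Neutrophils are short-lived phagocytes made in the bone marrow. They take up their arsenal in waves while they mature, filling primary granules at the promyelocyte stage, then secondary granules, then tertiary granules, and they leave the marrow with the genes of the early waves largely switched off. Circulating cells follow CXC chemokines through the receptor Cxcr2, and granulocyte colony-stimulating factor (G-CSF, gene *Csf3*) drives their production. The 4T1 tumour is known for secreting G-CSF and for a strong expansion of neutrophils and of immature myeloid cells in the host. The members fall into 3 stages of this life: granule genes of maturing cells (*Ngp*, *Camp*, *Ltf*, *Mmp8*), cytoplasmic and secreted proteins of mature cells (*S100a8*, *S100a9*, *Retnlg*) and surface molecules (*Cxcr2*, *Ly6g*, *Trem1*). None is wholly private to neutrophils, since monocytes and inflamed epithelium also make S100a8 and S100a9, and glandular epithelium makes lactoferrin. In whole tumours, fewer neutrophils and less RNA per neutrophil cannot be told apart.

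The libraries held 20285968 to 27021401 estimated reads. Tumour 3 of the miR-183-5p group and all tumours of the miR-222-3p group stood apart, as a smaller set, from the other 8 libraries, which form a larger set. In the smaller set the mitochondrial pseudogene *Gm28661* took under 1% of the reads given to it and *mt-Co2* together. The miR-222-3p group and the library set thus cannot be told apart. B lymphocyte markers summed to 419 TPM (transcript level scaled for length and library depth) in miR-142-5p tumour 3 and to between 1.02 and 2.79 TPM in the other 11 tumours. Erythroid markers (globins and *Alas2*) summed to 361 to 450 TPM in ctrl, 282 to 680 after miR-142-5p, 435 to 761 after miR-183-5p and 151 to 272 in miR-222-3p tumours. Macrophage markers summed to 1722 to 2179 TPM in ctrl tumours and to 1129 to 1709 in miR-183-5p tumours.

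S100a8 and S100a9 form calprotectin, a heterodimer that binds calcium, zinc and manganese and makes up a large share of the soluble protein of a neutrophil. The genes lie on chromosome 3 (GRCm38), *S100a8* (ENSMUSG00000056054.9) at chr3:90668978-90670035 on the plus strand and *S100a9* (ENSMUSG00000056071.12) at chr3:90692632-90695721 on the minus strand, 22.6 kb apart. They were the most strongly expressed members. *S100a9* averaged 1025 TPM (SD 402, n = 12) and ranked 145th of the tested genes, and *S100a8* averaged 519 TPM (SD 200, n = 12) and ranked 261st. TPM is scaled for transcript length, so these levels can be set beside each other, and the S100a9-to-S100a8 ratio was 1.97 ± 0.10 (SD, n = 12), with a lowest value of 1.78 and a highest of 2.12.

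The stretches before the start sites of 4 members are shown because these pairs of genes moved together from tumour to tumour (S100a8 with S100a9, Ngp with Mmp8, given below). They come from the RefSeq promoter windows of the GRCm38.p6 build, taken as the 250 bases before the RefSeq start site and cut short where a protein-coding GENCODE transcript begins earlier. Each reads 5′ to 3′ on the strand of its gene. Capitals mark TTGCNNAA or TTGCNNCA (letters like those read by the C/EBP factors that switch on granule genes), GAGGAAGT (like the core read by the myeloid factor PU.1) or TATAAA, on either strand.
S100a8, chr3:90668821-90668977, plus strand: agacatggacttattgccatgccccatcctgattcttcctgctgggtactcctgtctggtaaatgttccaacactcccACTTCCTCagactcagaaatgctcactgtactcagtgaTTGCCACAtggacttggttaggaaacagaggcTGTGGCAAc
S100a9, chr3:90695722-90695971, minus strand: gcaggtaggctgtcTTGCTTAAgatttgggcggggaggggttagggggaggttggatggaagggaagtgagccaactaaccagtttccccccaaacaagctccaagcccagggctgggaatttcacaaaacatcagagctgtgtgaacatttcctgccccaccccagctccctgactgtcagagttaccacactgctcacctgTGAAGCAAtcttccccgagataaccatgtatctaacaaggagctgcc
Ngp, chr9:110419558-110419746, plus strand: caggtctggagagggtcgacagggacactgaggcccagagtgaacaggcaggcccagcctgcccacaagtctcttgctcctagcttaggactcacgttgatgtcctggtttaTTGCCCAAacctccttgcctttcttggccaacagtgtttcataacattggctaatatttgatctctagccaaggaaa
Mmp8, chr9:7558179-7558428, plus strand: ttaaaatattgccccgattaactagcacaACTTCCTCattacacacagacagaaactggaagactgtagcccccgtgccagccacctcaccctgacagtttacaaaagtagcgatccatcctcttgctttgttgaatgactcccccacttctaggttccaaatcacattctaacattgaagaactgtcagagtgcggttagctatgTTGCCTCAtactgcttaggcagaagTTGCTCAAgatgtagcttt

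Over the full 250 bases, TTGCNNAA stood before 6 of the 10 members (*S100a9*, *Ly6g*, *Retnlg*, *Ngp*, *Ltf*, *Mmp8*) and before 10.8% of the 27025 genes with a window. TTGCNNCA stood before 4 (*S100a8*, *S100a9*, *Camp*, *Mmp8*) and before 11% of genes, and 8 of 10 members held one or the other, against 20.3% of genes. GAGGAAGT stood before 3 (*S100a8*, *Ly6g*, *Mmp8*) and before 2.79% of genes. The shorter GAGGAA, which GAGGAAGT contains, stood before 6 members and 25.9% of genes, and TATAAA before *S100a8* and *Ly6g* and 14.3% of genes. *Cxcr2* and *Trem1* held GAGGAA alone. For *Camp* the first GENCODE start lies 161 bases before the RefSeq start, so both its matches fall inside the GENCODE transcript. For *S100a8* it lies 93 bases before, so its TATAAA and the GAGGAA match nearest the RefSeq start also fall inside. For *Ngp* it lies 61 bases before, and the TTGCNNAA match nearest the RefSeq start falls inside. These are matches of letters and not measured binding sites.

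*S100a8* stood at 489, 312 and 633 TPM in the ctrl tumours 1 to 3. It stood at 499, 331 and 339 TPM in the miR-142-5p tumours and at 451, 279 and 647 TPM in the miR-222-3p tumours. In the miR-183-5p tumours it stood at 963, 575 and 706 TPM. All 3 miR-183-5p tumours were thus above all 3 miR-142-5p tumours, and their lowest overlapped the highest ctrl and miR-222-3p tumours. *S100a9* stood at 974, 660 and 1230 TPM in ctrl, 1059, 605 and 602 in miR-142-5p, 1889, 1181 and 1443 in miR-183-5p and 885, 539 and 1228 in miR-222-3p tumours. The order of the group means was the same for both genes, miR-183-5p, ctrl, miR-222-3p and miR-142-5p. The lower 3 groups overlapped each other throughout.

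*Retnlg* (ENSMUSG00000022651.6, chr16:48872621-48874496, plus strand) encodes resistin-like gamma, a small secreted protein found in bone marrow and mature neutrophils. It averaged 67.7 TPM (SD 28.1, n = 12) and lay above 84.4% of tested genes. Its levels were 66.8, 46.8 and 76.7 TPM in ctrl, 59.6, 50.2 and 43.7 in miR-142-5p, 133, 86.7 and 78.3 in miR-183-5p, and 46.3, 30.7 and 93.5 in miR-222-3p tumours. The miR-183-5p tumours were above every ctrl and miR-142-5p tumour, and miR-222-3p tumour 3 lay among them while the other two of its group were the lowest or near it.

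**Figure D1:**
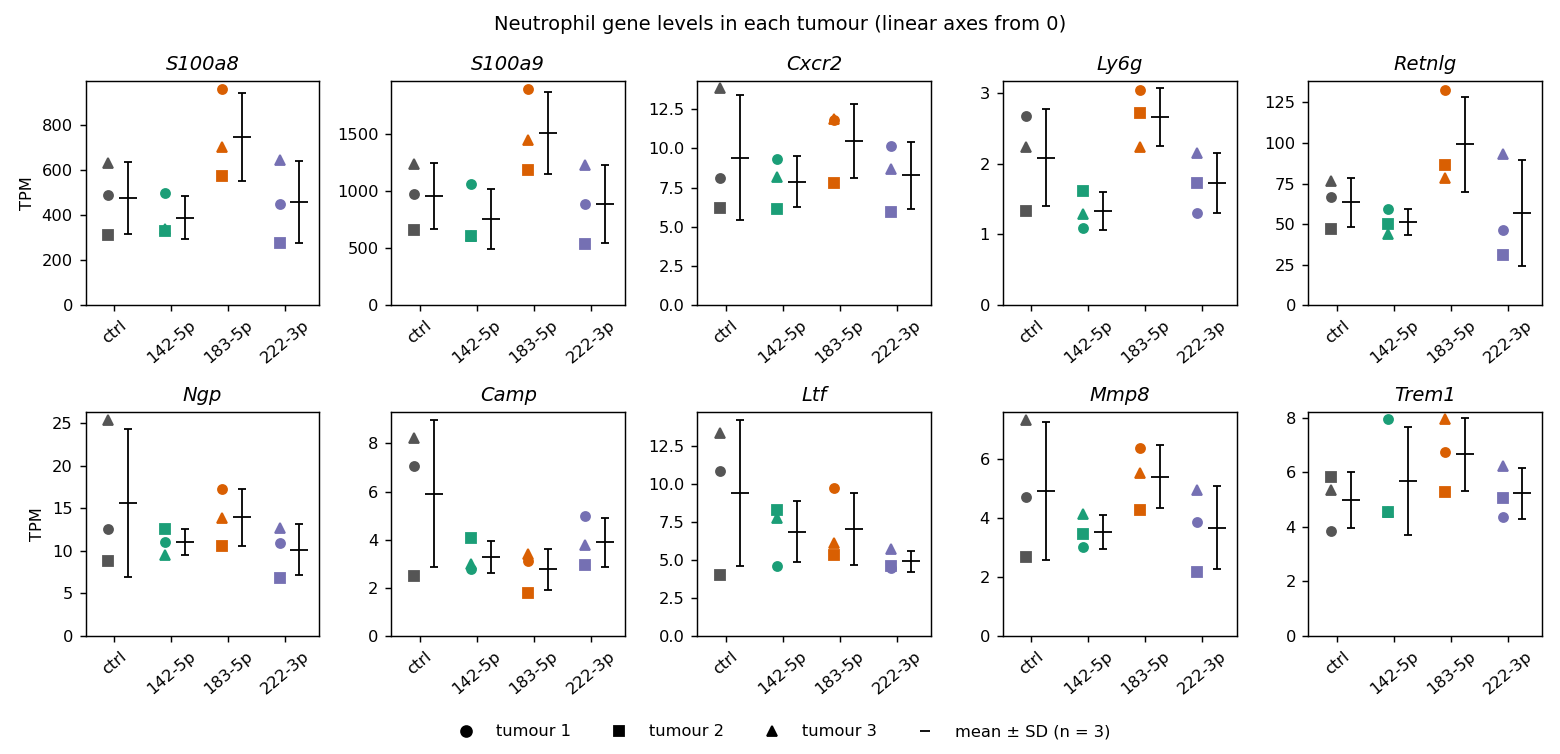
Level in TPM (vertical, linear from 0) of each neutrophil gene in the 12 tumours by group (horizontal), with point shapes for tumours 1 to 3 and the mean ± SD of the 3 tumours beside them. The highest points for S100a8, S100a9, Retnlg and Ly6g, at 963, 1889, 133 and 3.04 TPM, are those of miR-183-5p tumour 1, whereas Ngp, Camp, Ltf and Mmp8 peak in ctrl tumour 3 at 25.4, 8.22, 13.4 and 7.35 TPM.

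The surface molecules were expressed at low level. *Cxcr2* (ENSMUSG00000026180.8, chr1:74153989-74161246, plus strand), the receptor for CXC chemokines such as Cxcl1, Cxcl2 and Cxcl5, averaged 9.01 TPM (SD 2.52, n = 12). It ran from 5.97 TPM in miR-222-3p tumour 2 to 13.9 in ctrl tumour 3, and the 4 groups overlapped, with means of 9.40 in ctrl, 7.87 after miR-142-5p, 10.5 after miR-183-5p and 8.27 after miR-222-3p. *Trem1* (ENSMUSG00000042265.13, chr17:48232768-48246924, plus strand) encodes an activating receptor that amplifies inflammatory signals through the adaptor Tyrobp. It varied least among the tumours, from 3.84 TPM in ctrl tumour 1 to 7.95 TPM in miR-142-5p tumour 1 and miR-183-5p tumour 3.

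*Ly6g* (ENSMUSG00000022582.4, chr15:75155240-75159126, plus strand) encodes the GPI-anchored antigen by which mouse neutrophils are usually stained, yet it was the least expressed member. It was covered by 13 to 43 reads per library, which limits the precision of its folds. Its levels were 2.68, 1.33 and 2.24 TPM in ctrl, 1.10, 1.62 and 1.28 in miR-142-5p, 3.04, 2.71 and 2.23 in miR-183-5p, and 1.30, 1.72 and 2.16 in miR-222-3p tumours. The miR-183-5p tumours lay above the miR-142-5p and miR-222-3p tumours without overlap and overlapped ctrl. *Ly6g* belongs to a family of close relatives on the same chromosome, and reads shared with them may have been divided by the quantification.

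The granule genes all sit on chromosome 9. *Ngp* (ENSMUSG00000032484.8, chr9:110419747-110423012, plus strand) encodes neutrophilic granule protein, a cathelicidin relative of secondary granules. *Camp* (ENSMUSG00000038357.10, chr9:109847379-109849617, minus strand) encodes the cathelicidin antimicrobial peptide CRAMP. *Ltf* (ENSMUSG00000032496.7, chr9:111019271-111042767, plus strand) encodes lactoferrin, which withholds iron from microbes, and *Mmp8* (ENSMUSG00000005800.3, chr9:7558456-7568485, plus strand) encodes neutrophil collagenase. *Camp* lies 570 kb from *Ngp*, and *Ngp* lies 596 kb from *Ltf*.

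*Ngp* stood at 12.6, 8.83 and 25.4 TPM in ctrl, 11, 12.6 and 9.46 in miR-142-5p, 17.3, 10.6 and 13.9 in miR-183-5p, and 11, 6.83 and 12.7 in miR-222-3p tumours. *Camp* stood at 7.06, 2.48 and 8.22 TPM in ctrl, 2.81, 4.05 and 2.98 in miR-142-5p, 3.11, 1.80 and 3.41 in miR-183-5p, and 4.97, 2.95 and 3.79 in miR-222-3p tumours. The ctrl tumours 1 and 3 were above all other tumours for *Camp*, and ctrl tumour 2 was among the lowest. *Ltf* stood at 10.9, 4.06 and 13.4 TPM in ctrl, 4.61, 8.29 and 7.75 in miR-142-5p, 9.72, 5.33 and 6.13 in miR-183-5p, and 4.45, 4.64 and 5.74 in miR-222-3p tumours. For *Ltf* the ctrl tumours held both the highest and the lowest value. *Mmp8* ran from 2.18 TPM in miR-222-3p tumour 2 to 7.35 TPM in ctrl tumour 3, with group means of 4.93 in ctrl, 3.55 after miR-142-5p, 5.41 after miR-183-5p and 3.68 after miR-222-3p. *Camp* rested on 18 to 68 reads per library.

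Of the 5 primary granule genes, which are made earlier in maturation, *Mpo*, the myeloperoxidase of primary granules, did not exceed 0.877 TPM in any tumour and *Elane*, neutrophil elastase, did not exceed 0.860 TPM. *Prtn3*, proteinase 3, had the highest mean of the 5 and ran from 1.29 to 4.51 TPM. *Siglecf*, *Prg2*, *Epx* and *Ear1*, which mark eosinophils, summed to at most 0.753 TPM.

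The first question of the design was whether vesicles loaded with each microRNA changed these genes relative to ctrl vesicles. Fold changes come from DESeq2 on gene counts of all 12 libraries, with p-values adjusted over all tested genes. No member passed an adjusted p of 0.05 against ctrl in any of the 3 groups, and edgeR's quasi-likelihood test also called 0 members. All genes together gave hardly more, with 0.00649% of them called in miR-142-5p tumours, 0% in those given miR-183-5p and 0.026% in those given miR-222-3p.

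In miR-142-5p tumours, 9 of 10 members had a fitted log2 fold change below 0, where 51.2% of all tested genes did. The median over the members was -0.38, beside 0.00 over all tested genes (-0.005). *Camp* had the lowest value, -0.85 ± 0.47 (SE, unadjusted p = 0.0711, DESeq2), and 0 members had an unadjusted p under 0.05. The intervals allow for sizeable shifts either way. For *S100a8* the log2 fold change was -0.27 (95% interval -0.91 to 0.37) and for *Retnlg* -0.29 (-1.01 to 0.43). *Trem1* was the exception in sign with 0.23 (-0.34 to 0.79), a sign set by miR-142-5p tumour 1, without which it was -0.16. Leaving out ctrl tumour 3 moved *Ngp* to 0.00 (0.004) and *Cxcr2* to 0.10. For each of the 10 genes the tumours of the groups overlapped. T lymphocyte markers were above 0 in 5 of 5 genes in the same contrast (median log2 fold change 1.05, 0 called), with sums of 33.5 to 47.7 TPM in ctrl and 35.0 to 137 TPM in miR-142-5p tumours. Macrophage markers were above 0 in 6 of 7 (median 0.16, 0 called), and the part of both was not tested.

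In miR-183-5p tumours the members divided. *S100a8* was 1.59-fold its ctrl level (95% interval 1.02 to 2.47, log2 0.67 ± 0.33 SE, unadjusted p = 0.0409, adjusted p = 0.9998, DESeq2). *S100a9* was 1.60-fold (1.02 to 2.50, unadjusted p = 0.0404) and *Retnlg* 1.58-fold (0.96 to 2.60, unadjusted p = 0.0691), and all 3 miR-183-5p tumours were above the ctrl mean for each of the 3 genes. *Camp* went the other way, at 0.47-fold (0.25 to 0.90, log2 -1.08 ± 0.47 SE, unadjusted p = 0.0215, adjusted p = 0.9998, DESeq2), with 0 of 3 tumours above the ctrl mean. The groups overlapped for *Camp*, since ctrl tumour 2 (2.48 TPM) lay below miR-183-5p tumours 1 and 3 (3.11 and 3.41 TPM). *Camp* was also below ctrl in miR-142-5p (log2 fold change -0.85) and miR-222-3p tumours (-0.62), so its lower level was not particular to miR-183-5p. *Ltf* had a log2 fold change of -0.40 (95% interval -1.16 to 0.35) and *Ngp* of -0.13 (-0.81 to 0.56).

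*S100a8* and *S100a9*, 2 members, were thus higher at an unadjusted p under 0.05, beside 1.62% of all tested genes, and 1, *Camp*, was lower, beside 1.6%. *S100a9* and *Retnlg* were higher without overlap between the groups in normalised counts, as were 4.42% of tested genes. The median over the members was 0.28, beside -0.01 over all tested genes. Without ctrl tumour 2, the ctrl tumour lowest in *S100a8*, *S100a9* and *Retnlg*, the median fell to 0.03 and *Cxcr2* and *Mmp8* changed sign to -0.04 and -0.14. *Ngp* changed sign without ctrl tumour 3, to 0.34, and without miR-183-5p tumour 2, to 0.03. *S100a8* kept a positive value throughout, from 0.43 to 0.86 over all fits run, and *Camp* a negative one, from -1.46 to -0.84. Macrophage markers moved the opposite way in the same contrast (7 of 7 below 0, median log2 fold change -0.44, 0 called) and erythroid markers the same way (5 of 5 tested above 0, median 0.48, 0 called), and their part in these differences was not tested.

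**Figure D2:**
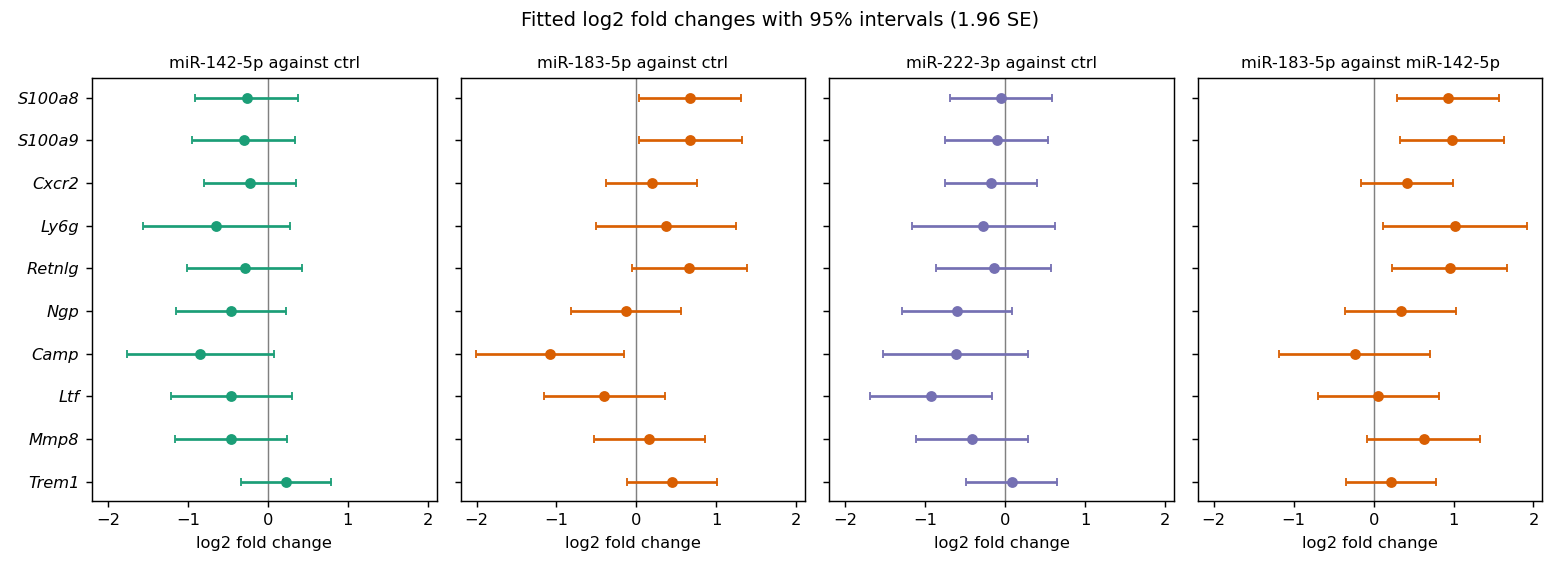
Fitted log2 fold change (horizontal, points) with 95% intervals (bars) of each neutrophil gene (vertical) in 4 contrasts. In miR-183-5p tumours the intervals of S100a8, S100a9, Retnlg and Ly6g lie above 0 against miR-142-5p tumours, and against ctrl those of S100a8 and S100a9 lie above 0 and that of Camp, at -1.08, below it. The interval of Ltf lies below 0 for miR-222-3p against ctrl.

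In miR-222-3p tumours, 9 of 10 members were below 0, where 52% of all tested genes were, with a median of -0.23 beside -0.01 over all tested genes. *Ltf* had the largest difference, 0.53-fold (95% interval 0.31 to 0.89, log2 -0.93 ± 0.39 SE, unadjusted p = 0.0169, adjusted p = 0.99996, DESeq2), and was the 1 member lower at an unadjusted p under 0.05, beside 1.09% of all tested genes. All 3 miR-222-3p tumours were below the ctrl mean for *Ltf*, *Ngp* and *Camp*, yet ctrl tumour 2 was lower still for *Ltf* and *Camp*. *S100a8* differed from ctrl by a log2 fold change of only -0.05 (95% interval -0.69 to 0.59), and its sign changed when ctrl tumour 1 or 3 or miR-222-3p tumour 1 or 2 was left out. Without miR-222-3p tumour 3, which was the highest of its group for 8 members, the median moved to -0.58. Erythroid markers were lower in the same contrast in 5 of 5 tested genes (median log2 fold change -0.83, 0 called), with summed levels that did not overlap ctrl, and their part was not tested.

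The microRNA groups were then compared with each other. Between miR-183-5p and miR-142-5p tumours, no member passed the adjusted threshold in DESeq2 or edgeR, and 4 members were higher at an unadjusted p under 0.05, beside 3.09% of tested genes. The background of calls was 0.0519%. *S100a9* was 1.97-fold higher in miR-183-5p tumours (95% interval 1.26 to 3.08, unadjusted p = 0.00296, adjusted p = 0.234, DESeq2). *S100a8* was 1.91-fold higher (1.23 to 2.97, unadjusted p = 0.0042, adjusted p = 0.271), *Retnlg* 1.93-fold (1.18 to 3.18, adjusted p = 0.383) and *Ly6g* 2.02-fold (1.09 to 3.77, adjusted p = 0.532). For these 4 genes and *Mmp8* the 3 tumours of each group did not overlap, as for 5.92% of tested genes. *Camp* (-0.24, 95% interval -1.18 to 0.71) and *Ltf* (0.06, -0.70 to 0.81) showed no difference beyond their error on the log2 scale. Markers of other cells moved in the same contrast, with 0 called. Macrophage markers were below 0 in 7 of 7 genes (median log2 fold change -0.57) and summed to 1849 to 2708 TPM in miR-142-5p tumours, without overlap with the miR-183-5p tumours. T lymphocyte markers were below 0 in 5 of 5 (median -1.14), and both tested B lymphocyte markers were lower (median -5.84), with the highest sums of both lymphocyte lists in miR-142-5p tumour 3. Their part in the members' differences was not tested.

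These adjusted p-values changed with the libraries that entered the fit. With the 2 groups fitted alone, *S100a8* (adjusted p = 0.025), *S100a9* (0.0372) and *Retnlg* (0.0352) passed, at the same folds. Without miR-142-5p tumour 1, the highest of its group in all 3 genes, *S100a8* (0.0225) and *S100a9* (0.00309) passed, with log2 fold changes of 1.21 and 1.37. Of 50 further neutrophil genes tested, described below, *Hp* and *Lcn2* passed in the first of these fits. In the second, *G0s2*, *Acod1*, *Il1r2*, *Hdc*, *Cxcl3*, *Clec4d*, *Hp* and *Cxcl2* passed. The share of all tested genes called in either fit is not given here, so these passes are not read as particular to the members. Over all fits run, the adjusted p of *S100a8* ranged from 0.0225 to 0.843 and its log2 fold change from 0.73 to 1.21. With the library set as a covariate it was 0.97, and the adjusted p was 0.776.

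Between miR-183-5p and miR-222-3p tumours (background of calls 0.0324%) 0 members were called by DESeq2 or edgeR, and 3 were higher at an unadjusted p under 0.05, beside 1.59% of tested genes. They were *S100a8* (log2 fold change 0.72, unadjusted p = 0.028), *S100a9* (0.78, 0.018) and *Retnlg* (0.80, 0.0273), by DESeq2. *Retnlg* passed, with an adjusted p of 0.00564 and a log2 fold change of 1.44, when miR-222-3p tumour 3 was left out. Of the further neutrophil genes, *Hp* and *Csf3* passed in that fit too, and its share of all tested genes called is not given here. In the same contrast erythroid markers were above 0 in 5 of 5 tested genes (median log2 fold change 1.35, 0 called), with summed levels that did not overlap, and macrophage markers were below 0 in 7 of 7 (median -0.39, 0 called). Their part was not tested. Between miR-142-5p and miR-222-3p tumours (background 0.0389%) 0 members were called by either tool, 0 had an unadjusted p under 0.05, and the median log2 fold change was -0.10. Over the fits run, 8 of the 10 members changed sign in this contrast, all but *Ly6g* and *Ltf*, with *Retnlg* running from -0.63 to 0.49. The 6 contrasts share tumours and are not independent of each other.

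The members were next followed from tumour to tumour. Over the 12 tumours, *Retnlg* spanned a 4.3-fold range in normalised counts, *Camp* 4.14-fold, *S100a8* 3.43-fold and *Trem1* 2.08-fold. On DESeq2's variance-stabilised scale, the SD within groups of *S100a9*, *S100a8* and *Retnlg* exceeded that of 97.9%, 97.5% and 96.0% of tested genes. Their within-group SDs of 0.48, 0.46 and 0.40 compare with a median of 0.16 over all tested genes. The other members ran from 93.7% (*Ltf*) down to 66.9% (*Camp*) and 16.0% (*Ly6g*), the last being the members with the fewest reads.

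**Figure D3:**
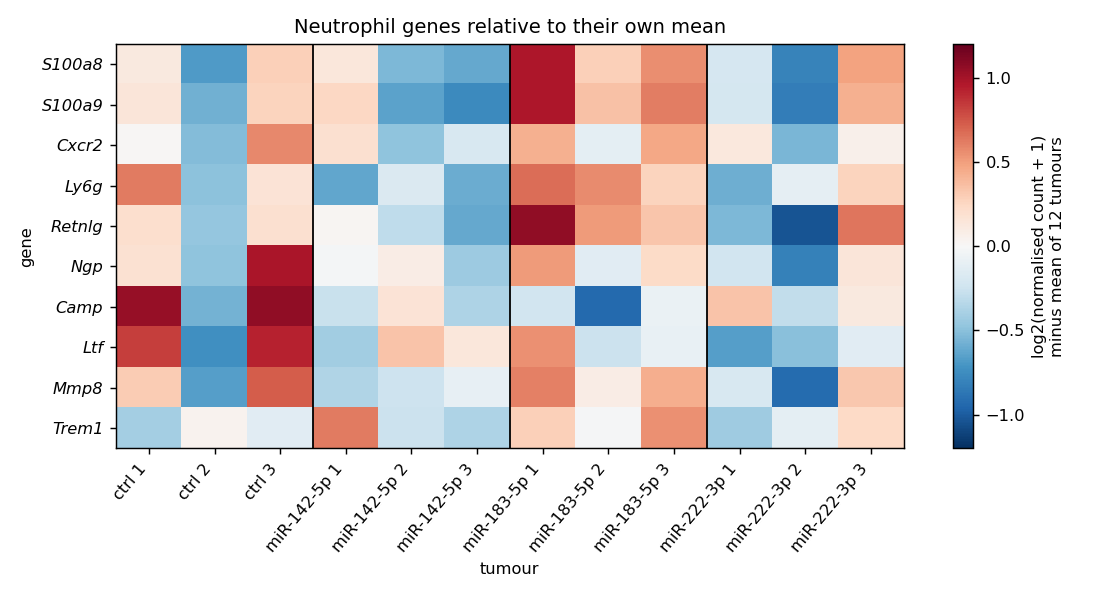
Level of each neutrophil gene (rows) in each tumour (columns) as log2(normalised count + 1) minus the gene's mean over the 12 tumours, red above and blue below the mean. The miR-183-5p tumour 1 column is red for S100a8, S100a9 and Retnlg, the miR-222-3p tumour 2 column is blue for most genes, and ctrl tumours 1 and 3 are red for Camp and Ltf.

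Of the 45 pairs of members, 22 were correlated across the 12 tumours at a Benjamini-Hochberg adjusted p under 0.05 (Pearson's r of log2(normalised count + 1), two-sided permutation test, 100000 resamples), and 17 by Spearman's rho. The r was above 0 in 43 pairs, with a median of 0.59. *S100a8* and *S100a9* had r = 0.99 and rho = 0.97 (permutation p = 1e-05 for both, the smallest the resamples can give, adjusted p = 0.000225 and 0.00045). Without the 2 tumours farthest from the median of *S100a8* their r was 0.99, and within the 8 libraries of the larger set it was 0.99. *S100a8* and *Retnlg* had r = 0.95 and rho = 0.90 (permutation p = 1e-05 and 0.00015, adjusted p = 0.000225 and 0.00225), with r = 0.90 without those 2 tumours and 0.97 within the larger set. Among granule genes, *Ngp* and *Mmp8* had r = 0.89 and rho = 0.88 (permutation p = 0.00012 and 0.00038, adjusted p = 0.00135 and 0.00427), with r = 0.80 without 2 tumours and 0.85 within the larger set. *Ngp* and *Ltf* had r = 0.76 and rho = 0.79 (permutation p = 0.00346 and 0.00352, adjusted p = 0.013 and 0.0176), with r = 0.63 and 0.78 in the same checks.

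*Trem1* was correlated with 0 of the other 9 at the adjusted threshold, and its r ran from -0.36 with *Camp* to 0.59 with *S100a9*. *Camp* was correlated with 1, *Ltf*, by Pearson's r (r = 0.65, permutation p = 0.0213, adjusted p = 0.0436) and not by rank (rho = 0.55, permutation p = 0.0671, adjusted p = 0.121). This relation rested on ctrl tumours 1 and 3, without which r was 0.14, and was 0.82 within the larger set, which holds both. With group means removed, 21 of the 45 pairs passed the threshold. The shuffles treated the 12 residuals as independent although 4 group means had been subtracted. These p-values are therefore too small, and the count of pairs may be too high. *Camp* then passed with 4 genes, *Ltf* (r = 0.81, adjusted permutation p = 0.00711), *Ngp* (r = 0.80, 0.00711), *Mmp8* (r = 0.78, 0.00711) and *Cxcr2* (r = 0.69, 0.0243), and *Trem1* with 0. Within the 8 libraries of the larger set 3 pairs passed, and without the 2 farthest tumours of each pair 3 passed, with fewer tumours in both. In both checks they were the pairs among *S100a8*, *S100a9* and *Retnlg*. *Ngp* with *Mmp8* (adjusted permutation p = 0.072 and 0.0618) and with *Ltf* (0.0827 and 0.132) did not pass. The 4 libraries of the smaller set are too few for a correlation. All genes of a tumour share its library and its share of neutrophil RNA.

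**Figure D4:**
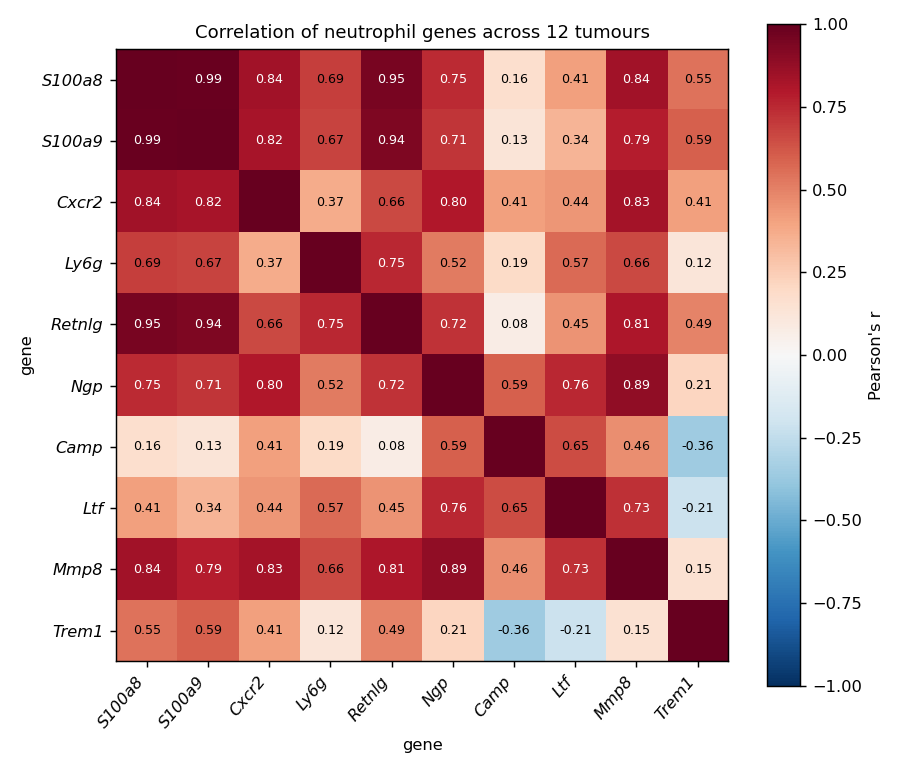
Pearson's r of log2(normalised count + 1) over the 12 tumours for each pair of neutrophil genes (rows and columns), with r printed in each cell. S100a8, S100a9, Retnlg, Cxcr2, Ngp and Mmp8 form a block of high r, whose highest value is 0.99, and Camp and Trem1 reach -0.36 with each other.

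Ratios of *S100a8* to other members were also formed within each tumour. The S100a8-to-Camp TPM ratio was 69.3, 126 and 77.0 in ctrl, 178, 81.6 and 114 in miR-142-5p, 310, 319 and 207 in miR-183-5p, and 90.9, 94.5 and 171 in miR-222-3p tumours. The 3 miR-183-5p tumours thus had the 3 highest ratios of all 12. The S100a8-to-Ngp ratio was 38.8, 35.4 and 24.9 in ctrl and 55.6, 54.3 and 50.7 in miR-183-5p tumours, with miR-222-3p tumour 3 at 51.1. The S100a8-to-Cxcr2 ratio was 60.4, 50.2 and 45.6 in ctrl and 81.4, 74.0 and 59.5 in miR-183-5p tumours. It was 53.5, 54.0 and 41.5 in miR-142-5p and 44.4, 46.7 and 74.6 in miR-222-3p tumours, so miR-222-3p tumour 3 lay among the miR-183-5p tumours. Over all 12 tumours the ratio of *S100a8* ran from 69.3 to 319 for *Camp*, from 24.9 to 55.6 for *Ngp*, from 41.5 to 81.4 for *Cxcr2* and from 6.60 to 9.74 for *Retnlg*. These ratios were formed after the values had been seen and are given as a description.

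For *S100a8*, *Cxcr2* and *Ngp*, the 5 genes most like each across the 12 tumours were sought among the tested genes with a mean normalised count of at least 100. For *S100a8* they were *S100a9* (r = 0.99), *Tnfrsf9* (0.96), *Gm5483* (0.96), *Retnlg* (0.95) and *BC100530* (0.94). *Tnfrsf9* encodes the co-stimulatory receptor 4-1BB, and *Gm5483* and *BC100530* belong to the stefin A group of protease inhibitors, whose near-identical copies may exchange reads. For *Cxcr2* they were *Asprv1* (0.95), *Mxd1* (0.94), *Hdc* (0.90), *Clec4e* (0.90) and *Csf3r* (0.89), which include the histamine-forming enzyme (*Hdc*) and the G-CSF receptor (*Csf3r*). For *Ngp* they were *Eepd1* (0.90), *Akt2* (0.90), *Mmp8* (0.89), *F10* (0.89) and *Cd177* (0.86), a surface protein of neutrophils that is stored in secondary granules.

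The wider neutrophil programme was read from 55 further genes in 7 lists, of which 50 were tested. Against ctrl, 0 of the 50 were called in any of the 3 groups by DESeq2 or edgeR. At an unadjusted p under 0.05, 2 were higher and 1 lower after miR-142-5p, beside 2.28% and 1.28% of all tested genes. After miR-183-5p 3 were higher and 2 lower, beside 1.62% and 1.6%, and after miR-222-3p 0 were either, beside 1.2% and 1.09%. The median log2 fold change over the 50 genes was -0.14, 0.32 and 0.01 in that order. For the counts above 0 that follow, 7543, 7311 and 7422 of all 15459 tested genes were above 0 against ctrl in the same order.

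The attractants came first among these lists. Cxcl1, Cxcl2, Cxcl3, Cxcl5 and Ppbp bind Cxcr2 and draw neutrophils from the blood. In miR-183-5p tumours, 5 of 5 tested ligand genes were above 0 against ctrl (median log2 fold change 0.71, 0 called), in miR-142-5p tumours 0 of 5 (median -0.20), and in miR-222-3p tumours 3 of 5 (median 0.07). *Cxcl2* stood at 10.5, 12.7 and 20.8 TPM in ctrl and 43.8, 15.9 and 34.1 in miR-183-5p tumours (log2 fold change 1.13 ± 0.44 SE, unadjusted p = 0.0101, DESeq2), with overlap. *Cxcl1*, the most strongly expressed ligand, ran from 89.1 to 200 TPM in ctrl (highest 199.6) and stood at 370 (369.9), 211 and 126 TPM in miR-183-5p tumours (log2 fold change 0.71, 95% interval -0.45 to 1.88).

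The summed ligand level followed *S100a8* closely. It was 248, 138 and 345 TPM in ctrl, 327, 131 and 149 in miR-142-5p, 648, 315 and 229 in miR-183-5p, and 232, 129 and 384 in miR-222-3p tumours. Across the 12 tumours *S100a8* and the summed ligands had r = 0.93 (permutation p = 7e-05, adjusted p = 0.00182 over 26 relations) and rho = 0.84 (permutation p = 0.00137, adjusted p = 0.0356). The r was 0.86 without the 2 tumours farthest from the median, 0.92 with group means removed and 0.98 within the 8 libraries of the larger set. *Ngp* and the summed ligands had r = 0.65 and rho = 0.66 (adjusted permutation p = 0.187 and 0.207).

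*Csf3* encodes G-CSF. It stood at 156, 145 and 137 TPM in ctrl, 193, 76.5 and 103 in miR-142-5p, 434, 224 and 306 in miR-183-5p, and 108, 119.5 and 359 in miR-222-3p tumours. The miR-183-5p tumours were above ctrl without overlap (log2 fold change 1.15 ± 0.59 SE, unadjusted p = 0.0535, adjusted p = 0.9998, DESeq2). Fitted with the ctrl group alone, *Csf3* (adjusted p = 0.000271, DESeq2, at the same log2 fold change of 1.15) and the decoy receptor *Il1r2* (0.0488) passed the threshold. That fit leaves out the miR-142-5p and miR-222-3p tumours, where the SD of *Csf3* was 49.2% and 72.4% of its mean, beside 6.47% in ctrl and 32.8% in miR-183-5p tumours. It also called more of all tested genes than the fit of all 12 libraries, as the last section gives. *S100a8* and *Csf3* had r = 0.83 (permutation p = 0.00111, adjusted p = 0.0144) and rho = 0.80 (permutation p = 0.00306, adjusted p = 0.0398), and r = 0.77 without the 2 farthest tumours, 0.70 with group means removed and 0.84 within the larger set. *Ngp* and *Csf3* had r = 0.31 and rho = 0.43 (adjusted permutation p = 0.703 and 0.385).

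**Figure D5:**
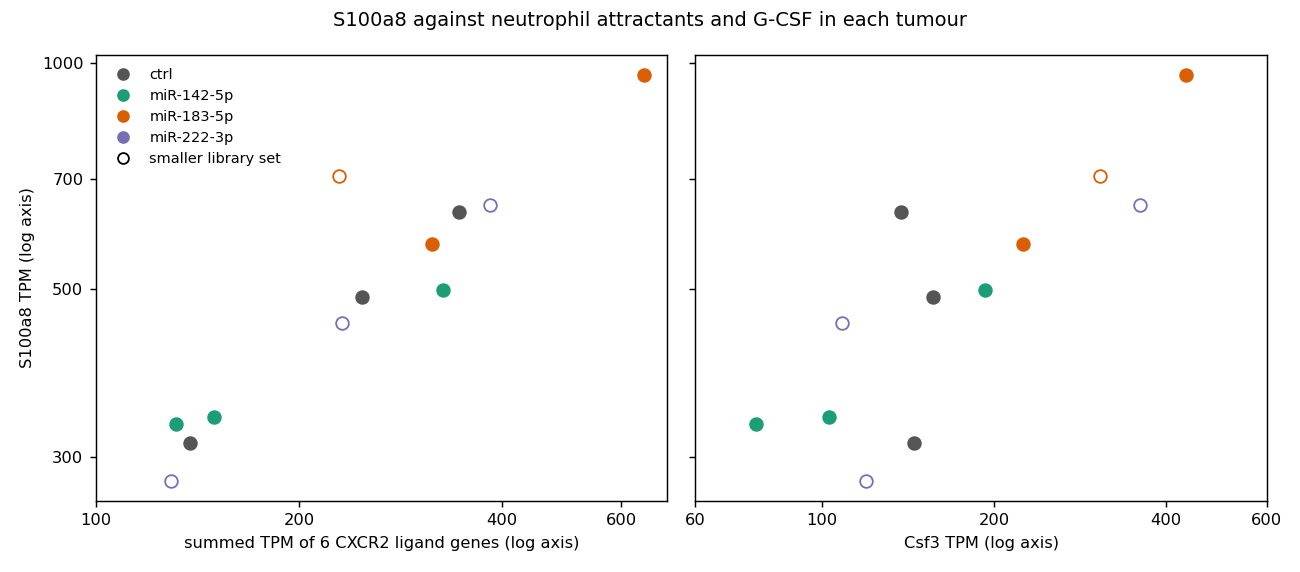
S100a8 level (vertical, TPM, log axis) against the summed level of 6 CXCR2 ligand genes (left) and of Csf3 (right), both in TPM on log axes, with one point per tumour coloured by group and open points for the smaller library set. The points rise together in both panels (r = 0.93 and 0.83 over 12 tumours), and miR-183-5p tumour 1 is the highest on every axis.

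Of the 26 relations, which set *S100a8* and *Ngp* against 11 marker lists of other cells, the ligands and *Csf3*, these 2 of *S100a8* were the only ones with an adjusted p under 0.05. *S100a8* and the summed erythroid markers had r = 0.63 and rho = 0.62 (adjusted permutation p = 0.191 and 0.233), and r = 0.46 without the 2 farthest tumours, 0.66 with group means removed and 0.63 within the larger set. With monocyte markers *S100a8* had r = -0.03 and rho = 0.05 (adjusted permutation p = 0.945 and 0.922), and with macrophage markers r = -0.48 and rho = -0.57 (adjusted permutation p = 0.385 and 0.256). With epidermal keratinocyte markers, of which *Krt1* was at 0 in all tumours, it had r = 0.20 and rho = 0.14 (adjusted permutation p = 0.775 and 0.907).

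Genes of mature neutrophils other than the members were above 0 in 11 of 11 tested genes in miR-183-5p against ctrl tumours (median log2 fold change 0.49, 0 called), in 1 of 11 in miR-142-5p (median -0.31) and in 6 of 11 in miR-222-3p tumours (median 0.03). *G0s2*, an inhibitor of triglyceride lipase, stood at 9.32, 16.3 and 18.4 TPM in ctrl and 39.8, 19.8 and 28.7 in miR-183-5p tumours (log2 fold change 1.04 ± 0.47 SE, unadjusted p = 0.0273, DESeq2). *Wfdc17*, the most strongly expressed of the list, had a log2 fold change of 0.32 (95% interval -0.33 to 0.98) there. The list includes the stefin A genes, which may exchange reads. It also holds *BC100530*, *Asprv1*, *Mxd1* and *Hdc*, which were among the nearest patterns of *S100a8* or *Cxcr2* in these tumours. Its signs are therefore not independent of the members' result.

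Other genes of secondary and tertiary granules were above 0 in 6 of 7 in miR-183-5p tumours (median 0.42) and in 1 of 7 in miR-142-5p tumours (median -0.28), with 0 called. *Slpi*, the most strongly expressed, is a protease inhibitor that mammary epithelium also secretes, and had log2 fold changes of 0.19 and -0.06. *Hp*, haptoglobin, stood at 30.8, 30.0 and 34.3 TPM in ctrl, 18.0, 20.6 and 23.0 in miR-142-5p, 40.1, 44.2 and 37.7 in miR-183-5p, and 24.6, 24.9 and 41.2 in miR-222-3p tumours. The miR-142-5p tumours were the lowest and the miR-183-5p tumours lay above ctrl, both without overlap. Against ctrl *Hp* had a log2 fold change of -0.62 ± 0.22 (SE, unadjusted p = 0.00437, adjusted p = 0.815, DESeq2) in miR-142-5p tumours. Between miR-183-5p and miR-142-5p tumours it was called (log2 fold change 1.0 ± 0.22 SE, adjusted p = 0.0119, DESeq2). With all 12 libraries fitted, it was the single gene of the 50 tested to be called in a comparison of microRNA groups. Over all fits run, that adjusted p ranged from 4.62e-07 to 0.548, with a log2 fold change between 0.92 and 1.06.

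Surface receptors other than *Cxcr2*, *Ly6g* and *Trem1* were above 0 in 10 of 12 in miR-183-5p tumours (median 0.26, 0 called). *Il1r2*, a decoy receptor for interleukin 1, stood at 29.6, 37.2 and 36.2 TPM in ctrl and 48.4, 47.2 and 52.8 in miR-183-5p tumours (log2 fold change 0.55 ± 0.21 SE, unadjusted p = 0.00907, DESeq2). *Selplg*, the selectin ligand PSGL-1 of most leukocytes, had a log2 fold change of 0.39 ± 0.16 (SE, unadjusted p = 0.016, DESeq2) in miR-142-5p tumours, with its highest level, 49.2 TPM, in the tumour rich in B lymphocyte markers. The part of B lymphocyte RNA in this difference was not tested.

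Genes of calprotectin receptors and of Trem1 signalling were above 0 against ctrl in 6 of 8 in miR-142-5p tumours (median log2 fold change 0.20). The count was 3 of 8 in miR-183-5p tumours (median -0.13) and 4 of 8 in miR-222-3p tumours (median -0.02), with 0 called in each group. *Tyrobp*, the adaptor of Trem1 and of many macrophage receptors, stood at 478, 413 and 495 TPM in ctrl and 396, 373 and 344 in miR-183-5p tumours (log2 fold change -0.30 ± 0.15 SE, unadjusted p = 0.0444, DESeq2), beside the lower macrophage markers of those tumours. *Syk*, a kinase downstream of it that B lymphocytes also use, had a log2 fold change of 0.53 ± 0.26 (SE, unadjusted p = 0.0398, DESeq2) in miR-142-5p tumours and peaked at 38.2 TPM in the tumour rich in B lymphocyte markers. The part of macrophage and B lymphocyte RNA in these differences was not tested.

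Primary granule genes were below 0 in 3 of 3 tested genes in miR-183-5p tumours (median -0.77, 0 called). Their largest difference was that of *Ctsg*, cathepsin G, a neutrophil and mast cell protease, which stood at 1.76, 0.411 and 7.31 TPM in ctrl and at 0.913, 0.696 and 0 in miR-183-5p tumours (unadjusted p = 0.0192, DESeq2). These genes rested on few reads. *Ctsg* had 20, 5 and 85 reads in ctrl and 12, 10 and 0 in miR-183-5p tumours, and *Mpo* had 3, 3 and 28.8 against 10, 2 and 8. Ctrl tumour 3 was the highest in both genes, so these differences lean on that tumour. Of the 4 tested granulopoiesis genes, *Csf3* and *Csf2* were above 0 in that group and *Cebpa* and *Gfi1* below 0 (median -0.08, 0 called). *Gfi1* ran from 0.804 to 0.911 TPM in ctrl and from 0.369 to 0.746 TPM in miR-183-5p tumours, without overlap.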

How the data were processed

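Tumour mRNA libraries (stranded, poly(A)-selected) were sequenced from 3 tumours in each of 4 groups. The authors quantified transcripts with Salmon on GRCm38, as the labels and methods state, and deposited an estimated count and a TPM value per transcript and library. TPM has transcript length and depth divided out, and estimated counts of near-identical genes depend on how the tool divides shared reads. The Ensembl release named in the methods differs from that in the tables' names. Here 116710 of 118783 transcripts (98.3%) were matched to GENCODE M21 and summed to genes, leaving 0.633% to 0.671% of each library's reads unmatched.

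Genes with at least 10 estimated reads in at least 3 libraries were kept. Rounded counts of all 12 libraries were fitted in DESeq2 1.42.0 (R 4.3.3) with group as the term, an offset for mean transcript length, and Wald tests adjusted by the Benjamini-Hochberg method (15413 genes with an adjusted p). The 95% intervals are 1.96 SE either way. Alternatives were edgeR 4.0.16 (quasi-likelihood, TMM), TMM factors, other filters, no length offset, a replicate block, library set as a covariate, the 2 groups alone, a threshold of 0.1 and leaving out each tumour. The code was tested on simulated data. Correlations used log2(value + 1) and permutation tests in Python 3.11.15 with scipy 1.17.1. Promoter windows are RefSeq's (GRCm38.p6).

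The members and lists were chosen with earlier results of these data known. The relations of S100a8 and Ngp with other lists, and the ratios, were added after seeing the values. Named beyond the members were list genes with an unadjusted p under 0.05 against ctrl, the gene of each list with the highest TPM, and the 5 nearest patterns. One gene of the erythroid list is not reported here and was left out of its values.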

Additional observations from a re-analysis of the deposited data

Results flagged for a closer look

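Of the members and the 50 other neutrophil genes tested, *Hp* was the gene whose response differed between microRNA groups by a direct test with all 12 libraries fitted. It was higher in miR-183-5p than in miR-142-5p tumours by a log2 fold change of 1.0 (SE 0.22, adjusted p = 0.0119, DESeq2), and 3 of 3 miR-183-5p tumours were above the miR-142-5p mean. It was not called by edgeR, with the library set as a covariate, or without miR-142-5p tumour 3, miR-183-5p tumour 2 or miR-183-5p tumour 3, and its adjusted p ran from 4.62e-07 to 0.548 over all fits.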

How the results depend on the processing

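Member calls against ctrl were 0 under every alternative run. They rose from 0 to 3 between the miR-183-5p and miR-142-5p groups with the 2 groups alone (S100a8 0.93, S100a9 0.98 and Retnlg 0.95 in log2 fold change), and ranged from 0 to 2 there and from 0 to 1 in miR-183-5p against miR-222-3p when a tumour was left out (miR-142-5p tumour 1 and miR-222-3p tumour 3). Calls over all genes in those fits between microRNA groups are not given here. Calls among the other neutrophil genes in miR-183-5p against ctrl rose from 0 to 2 with the 2 groups alone. Calls over all genes in miR-142-5p against ctrl went from 1 to 0 with edgeR or no length offset and to 2 with the library set, and ranged from 0 to 77 when a tumour was left out. In miR-183-5p against ctrl they went from 0 to 1 with the replicate block and 36 with the 2 groups alone (0 to 13 leaving out a tumour). In miR-222-3p against ctrl they went from 4 to 0 with edgeR or a filter of 50 counts in every library, to 14 with the library set, 16 with the 2 groups alone and 7 at a threshold of 0.1 (2 to 6 leaving out a tumour). Correlated pairs fell from 22 to 3 within the larger library set and to 3 without the 2 farthest tumours. With the library set as a covariate the log2 fold change in miR-222-3p against ctrl reversed for S100a8 (0.066), Ly6g (0.092), Retnlg (0.34) and Trem1 (-0.32). Only the miR-183-5p group holds libraries of both sets, so the set term came from its tumour 3 against its tumours 1 and 2. Every shift that term gives rests on miR-183-5p tumour 3. Against ctrl and between the miR-183-5p and miR-142-5p groups the other reversals came from leaving out a tumour, with log2 fold changes from -0.46 to 0.10 (Cxcr2), -0.75 to 0.00444 (Ngp) and -0.16 to 0.41 (Trem1) in miR-142-5p against ctrl, from -0.042 to 0.51 (Cxcr2), -0.41 to 0.34 (Ngp) and -0.14 to 0.50 (Mmp8) in miR-183-5p against ctrl, and from -0.44 to 0.21 (S100a8), -0.48 to 0.15 (S100a9), -0.41 to 0.15 (Cxcr2), -0.54 to 0.034 (Ly6g), -0.78 to 0.16 (Retnlg) and -0.11 to 0.23 (Trem1) in miR-222-3p against ctrl, and from -0.23 to 0.23 (Ltf) between the miR-183-5p and miR-142-5p groups. Between miR-142-5p and miR-222-3p tumours 8 members reversed, Cxcr2 (0.24), Camp (0.25) and Mmp8 (0.00864) with the library set, Mmp8 (0.033) with the replicate block, and all of them but Camp when a tumour was left out, from -0.50 to 0.18 (S100a8), -0.59 to 0.18 (S100a9), -0.24 to 0.11 (Cxcr2), -0.45 to 0.49 (Retnlg), -0.077 to 0.39 (Ngp), -0.32 to 0.29 (Mmp8) and -0.24 to 0.34 (Trem1). The alternatives for single members in comparisons between microRNA groups were chosen after seeing the data. The cause of these shifts was not tested. Tumours with the same number did not vary together (mean residual correlation -0.068, against 0.034 for different numbers, and 1 of 12 tumours was closest to its own number). The numbers thus gave no sign of pairing, but so few tumours cannot exclude a shared cage or batch. The replicate block changed no member call. Depth limits Ly6g and Camp most, and 3 tumours a group limit every comparison.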
